A study of Mus musculus with 9 samples.

Results

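The acute-phase and IL-6 STAT3 axis genes are 9 of the 34714 gene symbols counted in mouse cortex: A2m, Lrg1, Lcn2, Il6ra, Il6st, Stat3, Socs3, Cebpb and Cebpd. They were taken by symbol, as acute-phase proteins, IL-6 receptor chains, the transcription factor STAT3 with its feedback inhibitor, and factors of the C/EBP family, and they were chosen by their levels in EAE, treated and naive libraries of this experiment. All 9 were among the 18644 genes that passed the filter on low counts. RNA was sequenced from 3 cortices of each of 3 groups: mice with experimental autoimmune encephalomyelitis (EAE) that received Au18(L-NIBC)14, mice with EAE and no treatment, and naive mice. EAE is a model of multiple sclerosis in which an immune response against myelin inflames the central nervous system, and Au18(L-NIBC)14 is a gold nanocluster with L-NIBC (N-isobutyryl-L-cysteine) as its ligand. The labels and protocols do not state the strain, age or sex of the mice, the antigen, or the dose and timing of the treatment. The labels name the tissue as brain, and the extraction protocol as cortex. Replicates are named here by the brain numbers 1 to 3 in the titles.

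IL-6 binds its receptor chain IL-6Rα, encoded by Il6ra, and the complex then recruits gp130, encoded by Il6st, which is shared by the receptors of the whole cytokine family. JAK kinases bound to gp130 phosphorylate STAT3, and STAT3 switches on acute-phase genes as well as Socs3, whose product blocks gp130 signalling. C/EBPβ and C/EBPδ act with STAT3 on many acute-phase genes. In liver this axis drives the acute-phase response, and in brain the same genes are known from astrocytes, microglia and vessels during inflammation.

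Libraries held between 26972179 and 45243553 counts. Levels are CPM, the counts of a gene scaled to a fixed library total, after adjusting each library by edgeR's TMM method, whose factors lay between 0.98 and 1.02. Every one of 5 markers of cortical excitatory neurons was detected in all 9 libraries, with summed levels of 1710 to 1782 CPM in treated EAE, 1347 to 1596 CPM in EAE and 1576 to 1653 CPM in naive cortex. EAE replicate 1 stood apart in its 6 choroid plexus markers, which summed to 897 CPM there, against 27.8 and 104 CPM in the other EAE libraries, 7.57 to 19.1 CPM in treated EAE and 11.8 to 45.3 CPM in naive cortex. Red cell markers (5 of 5 in the table) summed to 102 to 380 CPM in treated EAE, 7.16 to 23.6 CPM in EAE and 131 to 175 CPM in naive cortex. Some results that lean on 1 library are given below with and without it.

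The promoters of Lrg1, Socs3 and Lcn2 are shown as examples: an acute-phase gene with matches to acute-phase motifs, the feedback inhibitor with a STAT match, and the acute-phase gene with the highest fold difference and no match. Promoters with C/EBP matches only, those of Il6ra, Il6st and Stat3, are not shown. Each runs 300 bases, 250 before and 50 after the RefSeq transcription start, 5′ to 3′ on the gene's strand, on GRCm38.p6. Capitals mark exact matches, on either strand, to TTCNNNGAA (STAT), CTGGGAA (a core of the acute-phase response element), TTNCNNNAA (C/EBP) or GGGANTTCC (NF-κB). Each is a single fixed pattern. C/EBP and NF-κB sites of other spacing or length were not searched, so a match or its absence concerns these letters only. The windows are chr17:56121897-56122196 for Lrg1, chr11:117969317-117969616 for Socs3 and chr2:32387690-32387989 for Lcn2, all on the minus strand. In GENCODE M21 the spans of Socs3 and Lcn2 begin farther upstream, at 117970047 and 32388252. Both windows thus lie inside those annotated genes.
Lrg1: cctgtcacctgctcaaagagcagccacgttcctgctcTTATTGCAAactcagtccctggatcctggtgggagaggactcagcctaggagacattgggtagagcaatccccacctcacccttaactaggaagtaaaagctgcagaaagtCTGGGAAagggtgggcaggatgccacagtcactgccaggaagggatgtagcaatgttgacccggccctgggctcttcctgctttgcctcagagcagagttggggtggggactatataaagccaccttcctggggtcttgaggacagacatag
Socs3: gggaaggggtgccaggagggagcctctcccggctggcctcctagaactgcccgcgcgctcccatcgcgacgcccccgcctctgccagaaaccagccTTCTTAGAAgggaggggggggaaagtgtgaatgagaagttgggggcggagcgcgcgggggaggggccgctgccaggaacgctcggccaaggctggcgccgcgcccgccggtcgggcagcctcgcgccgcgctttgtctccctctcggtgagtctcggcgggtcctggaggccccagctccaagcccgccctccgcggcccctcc
Lcn2: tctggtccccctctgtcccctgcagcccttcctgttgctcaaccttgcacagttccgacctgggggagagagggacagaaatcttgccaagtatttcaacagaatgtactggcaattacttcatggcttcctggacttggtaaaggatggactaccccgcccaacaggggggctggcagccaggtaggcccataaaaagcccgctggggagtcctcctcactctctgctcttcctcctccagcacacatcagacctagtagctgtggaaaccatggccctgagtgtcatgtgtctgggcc

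Lrg1 held CTGGGAA, first base at -102 from the start, and on the opposite strand a C/EBP match at -213. Socs3 held the STAT match TTCTTAGAA at -154 from its RefSeq start, which lies inside the GENCODE M21 gene span. Among 32851 mouse promoter windows of this length, 8.3% held the STAT letters, 11.1% CTGGGAA, 36.6% the C/EBP letters and 1.68% the NF-κB letters. Promoters of 7 of the 9 members were found in the table, and A2m and Cebpd were not among them. The Il6ra and Il6st windows each held 1 C/EBP match, the Stat3 window held 2, and the Cebpb window held none of the 4 patterns. A match is a run of letters and not a measured binding site. A missing match says nothing on other forms of a motif or on binding elsewhere.

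In EAE cortex the secreted acute-phase genes and the factor Cebpd stood well above naive cortex, at log2 fold changes of 2.05 to 6.11. Il6ra, Stat3, Socs3 and Cebpb were higher by 0.41 to 0.82, and Il6st by 0.12. The members were chosen with the levels of all 3 groups known, so their differences are given as a description: fold changes with standard errors, and no p for a single member. Treated and naive libraries overlapped, or nearly so, for most receptor and signalling genes. The mean level in treated cortex sat between those of EAE and naive cortex for every member. A2m, Lrg1, Lcn2 and Cebpd lay farthest above naive cortex, at log2 fold changes of 1.03 to 4.81, against 0.056 to 0.32 for the rest. In bulk tissue, more cells of a type and more RNA per cell cannot be told apart.

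A2m encodes α2-macroglobulin, a secreted protease trap listed here among the acute-phase proteins (chr6:121635376-121679227, plus strand, GRCm38). It had 2.37, 7.83 and 1.65 CPM in treated EAE, 9.48, 31.9 and 24.9 CPM in EAE, and 1.5, 1.43 and 1.10 CPM in naive cortex. The groups followed the order EAE, treated EAE, naive without overlap, although treated replicate 3 lay close to the naive libraries and treated replicate 2 close to EAE replicate 1. The log2 fold change in EAE over naive was 4.03 with a standard error (SE) of 0.69. In treated EAE against EAE it was -2.46 (SE 0.62), with a 95% interval of -3.88 to -1.04. Treated replicate 2 moved the value most: without it the log2 fold change was -3.45 against EAE, and 0.58 against naive in place of 1.57.

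Lrg1 encodes leucine-rich α2-glycoprotein, a secreted protein that modifies TGF-β signalling in vessels (chr17:56119678-56122001, minus strand). Its level was 1.71, 6.31 and 2.94 CPM in treated EAE, 4.74, 6.82 and 5.04 CPM in EAE, and 1.14, 0.807 and 1.28 CPM in naive cortex. Every treated library was above every naive one, and treated replicate 2 lay within the EAE libraries. Lrg1 was higher in EAE than in naive cortex by 2.36 on the log2 scale (SE 0.45). Against EAE the treated level differed by -0.59 (SE 0.41), a value that was -1.27 without treated replicate 2 and -0.26 without treated replicate 1. Over naive it was 1.76, and 1.08 without treated replicate 2.

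Lcn2 encodes lipocalin 2, which binds iron-carrying siderophores and is known in brain from reactive astrocytes and from neutrophils (chr2:32384633-32388252, minus strand). It had 2.15, 9.39 and 4.23 CPM in treated EAE, 2.27, 7.89 and 28.7 CPM in EAE, and 0.268, 0.110 and 0.138 CPM in naive cortex. The naive levels rest on 12, 3 and 4 counts, so their error is large beside their size. EAE replicates 1 and 2 lay within the range of the treated libraries and EAE replicate 3 above all of them, and both groups lay above all naive libraries. The log2 fold change was 6.11 (SE 1.19) in EAE over naive, and 4.77 without EAE replicate 3. In treated EAE over naive it was 4.81 (SE 1.19), and 4.06 without treated replicate 2. In treated EAE against EAE it was -1.30 (SE 0.84), with a 95% interval of -3.24 to 0.65. EAE replicate 3 alone set that sign: without it the log2 fold change was 0.039, and without treated replicate 2 it was -2.04.

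**Figure D1:**
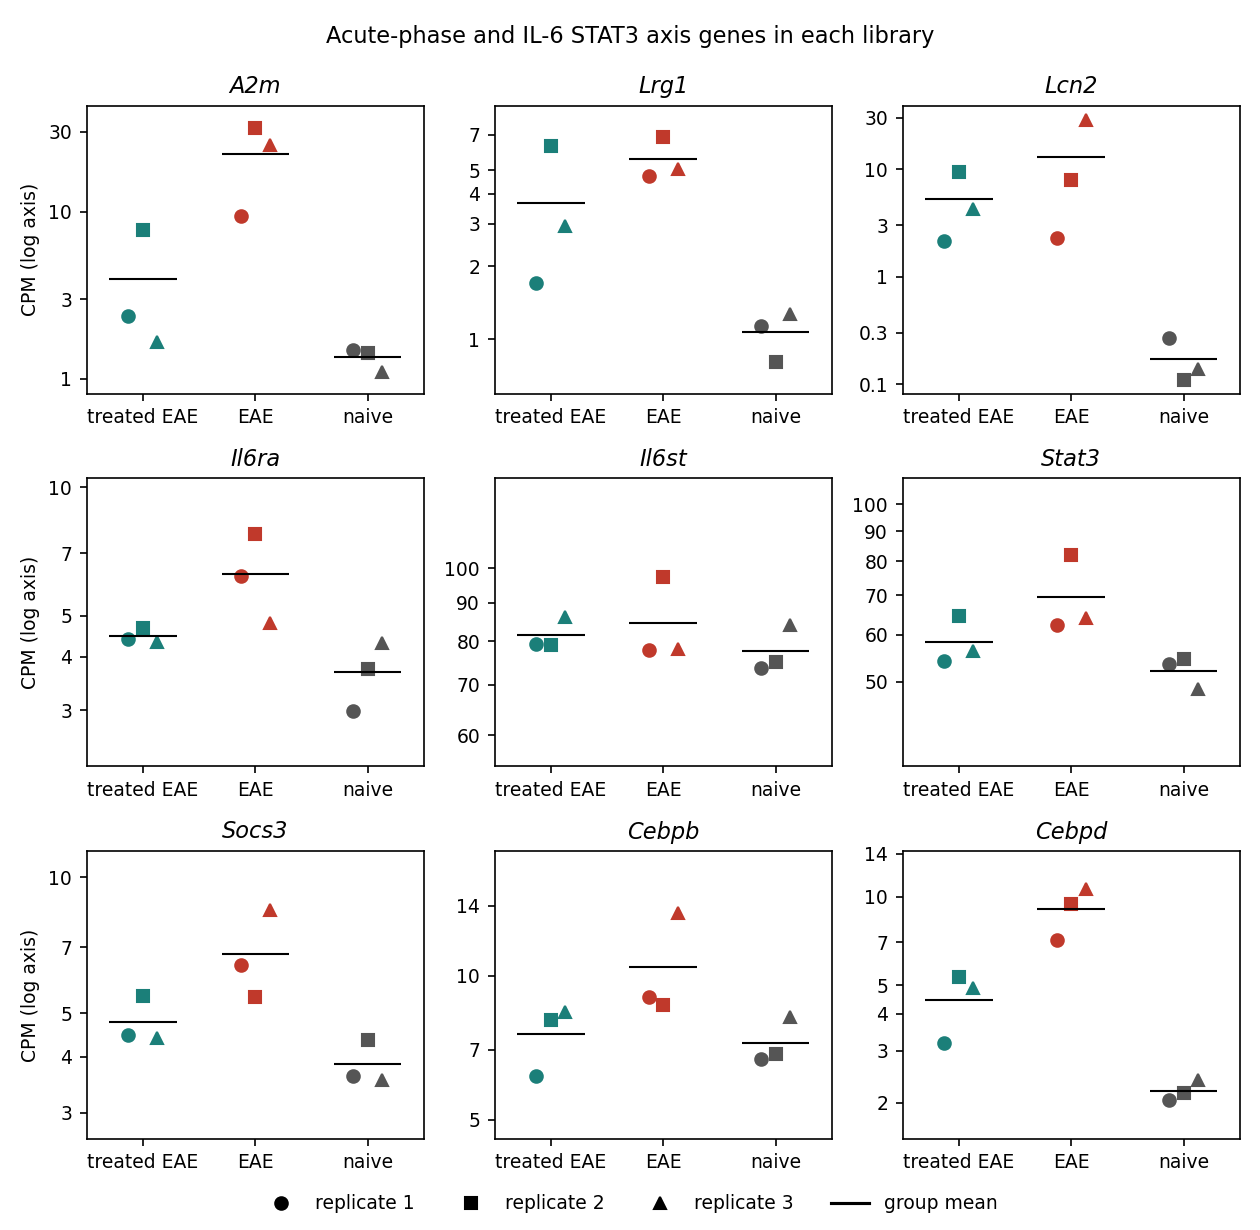
Level of each member in each library, in CPM on log axes, with treated EAE, EAE and naive cortex from left to right, marker shape for the replicate number and a line at the group mean. A2m, Il6ra and Cebpd have every treated library below every EAE library and above every naive one, Lcn2 spans 2.27 to 28.7 CPM within EAE, and Il6st overlaps in all groups.

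Markers of other cells that could carry these transcripts were read beside the acute-phase genes. Neutrophil markers (10 of 10 in the table) summed to 0.440 to 1.23 CPM in treated EAE, 0.844 to 2.78 CPM in EAE and 0.310 to 0.358 CPM in naive cortex. Of the 10, 4 to 6 were at 0 in a treated library, 2 to 6 in an EAE library and 4 to 7 in a naive one. Ly6g, which defines mouse neutrophils, was at 0 in all 9 libraries. The highest neutrophil sum and the highest Lcn2 level were both in EAE replicate 3. Monocyte markers (6 of 6) summed to 67.4 to 83.9 CPM in treated EAE, 77.9 to 143 CPM in EAE and 48.4 to 59.3 CPM in naive cortex, with up to 2 of the 6 at 0 in a library. Most of that sum was Fn1, which other cells make too. The remaining 5 summed to 1.43 to 4.08 CPM in treated EAE, 3.99 to 22.4 CPM in EAE and 1.27 to 1.91 CPM in naive cortex, highest in EAE replicate 3. Chil3 alone had 11.8 CPM in that library, against 0.292 and 0.485 CPM in EAE replicates 1 and 2. Among the 5, Ms4a6c had 1.07, 1.59 and 0.588 CPM in treated EAE, 1.88, 4.82 and 3.16 CPM in EAE, and 0.268, 0.587 and 0.448 CPM in naive cortex. Ccr2 had 0.830, 0.806 and 0.257 CPM in treated EAE, 0.389, 2.78 and 3.16 CPM in EAE, and 0.246, 0.367 and 0.172 CPM in naive cortex. The microglia sum (5 of 5, none at 0) was 277 to 328 CPM in treated EAE, 259 to 499 CPM in EAE and 245 to 299 CPM in naive cortex, and the astrocyte sum (5 of 5, none at 0) was 3583 to 5179 CPM in treated EAE, 3932 to 5511 CPM in EAE and 4261 to 4705 CPM in naive cortex. The 6 endothelium markers summed to 181 to 269 CPM in treated EAE, 178 to 256.5 in EAE and 191 to 198 in naive cortex. For the 5 pericyte markers the sums were 198 to 293, 226 to 291.5 and 208.5 to 221.3 CPM in the same order. For the 6 of meningeal fibroblasts they were 87.4 to 171, 112 to 163 and 81.5 to 107 CPM. The part of these cells in the results was not tested. Hepatocyte markers (6 of 6) summed to at most 1.10 CPM in any library, and the liver gene Serpina1a was at 0 in all 9.

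The IL-6 receptor chains had smaller fold changes than the secreted proteins. Il6ra, the chain that binds IL-6 (chr3:89864059-89913196, minus strand), had 4.40, 4.67 and 4.34 CPM in treated EAE, 6.20, 7.76 and 4.79 CPM in EAE, and 3.0, 3.74 and 4.31 CPM in naive cortex. All EAE libraries were above all others, and the treated ones spanned only a narrow range just above the naive maximum. The Il6ra log2 fold change was 0.77 (SE 0.20) in EAE over naive and -0.48 (SE 0.20) in treated EAE over EAE. Without EAE replicate 2 these values were 0.58 and -0.30. Il6st, the shared signalling chain gp130 (chr13:112464070-112510086, plus strand), had 79.3, 79 and 86.1 CPM in treated EAE, 77.8, 97.5 and 78.1 CPM in EAE, and 73.7, 75.0 and 84.1 CPM in naive cortex. It was the member whose groups overlapped in all 3 comparisons. Its log2 fold change was 0.12 (SE 0.098) in EAE over naive, with a 95% interval of -0.10 to 0.34. In treated EAE over EAE it was -0.053, with an interval of -0.27 to 0.17.

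Stat3 (chr11:100885098-100939540, minus strand) had 54.2, 64.7 and 56.4 CPM in treated EAE, 62.4, 81.9 and 64.2 CPM in EAE, and 53.5, 54.6 and 48.6 CPM in naive cortex. The EAE libraries were above all naive ones, and treated replicate 2 reached into the EAE range. Its log2 fold change was 0.41 (SE 0.11) in EAE over naive and -0.25 (SE 0.11) in treated EAE over EAE. Without EAE replicate 2 these values were 0.28 and -0.12. STAT3 is controlled by phosphorylation, which these data do not measure. Socs3, the STAT3 target whose protein inhibits gp130 (chr11:117966079-117970047, minus strand), had 4.47, 5.45 and 4.41 CPM in treated EAE, 6.39, 5.43 and 8.48 CPM in EAE, and 3.62, 4.36 and 3.55 CPM in naive cortex. All treated libraries lay above all naive ones, and treated replicate 2 was level with EAE replicate 2. The Socs3 log2 fold change was 0.82 (SE 0.19) in EAE over naive and -0.50 (SE 0.19) in treated EAE over EAE.

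Cebpb and Cebpd encode C/EBPβ and C/EBPδ, basic leucine zipper factors of the acute-phase response. Cebpb (chr2:167688915-167690418, plus strand) had 6.15, 8.09 and 8.38 CPM in treated EAE, 9.02, 8.70 and 13.5 CPM in EAE, and 6.68, 6.86 and 8.2 CPM in naive cortex. Treated and naive libraries overlapped, and EAE replicate 3 was the high library. Its log2 fold change was 0.52 (SE 0.20) in EAE over naive and -0.47 (SE 0.20) in treated EAE over EAE. Without EAE replicate 3 these values were 0.29 and -0.24. Cebpd (chr16:15887286-15891031, plus strand) had 3.18, 5.36 and 4.89 CPM in treated EAE, 7.14, 9.44 and 10.6 CPM in EAE, and 2.03, 2.16 and 2.38 CPM in naive cortex. The 3 groups did not overlap, with treated EAE between the other two. Cebpd was higher in EAE than in naive cortex by 2.05 on the log2 scale (SE 0.23), and treated over EAE was -1.02 (SE 0.22), with a 95% interval of -1.51 to -0.53.

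Parts of 4 members overlap other genes, and the strand setting of the counts is not given. Of the 1504 exon bases of Cebpb, 312 lie in Tmem189 too, which averaged 40.9 ± 5.67 CPM in treated EAE, 38.6 ± 1.57 CPM in EAE and 39.3 ± 0.481 CPM in naive cortex (SD, n = 3 each). Of the 3746 of Cebpd, 562 lie in Spidr, at 2.46 ± 0.257 CPM in treated EAE, 3.25 ± 0.574 CPM in EAE and 2.92 ± 0.539 CPM in naive cortex (SD, n = 3 each). Stat3 shares 72 bases with Stat5a, and Il6ra shares 242 with Gm42809.

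**Figure D2:**
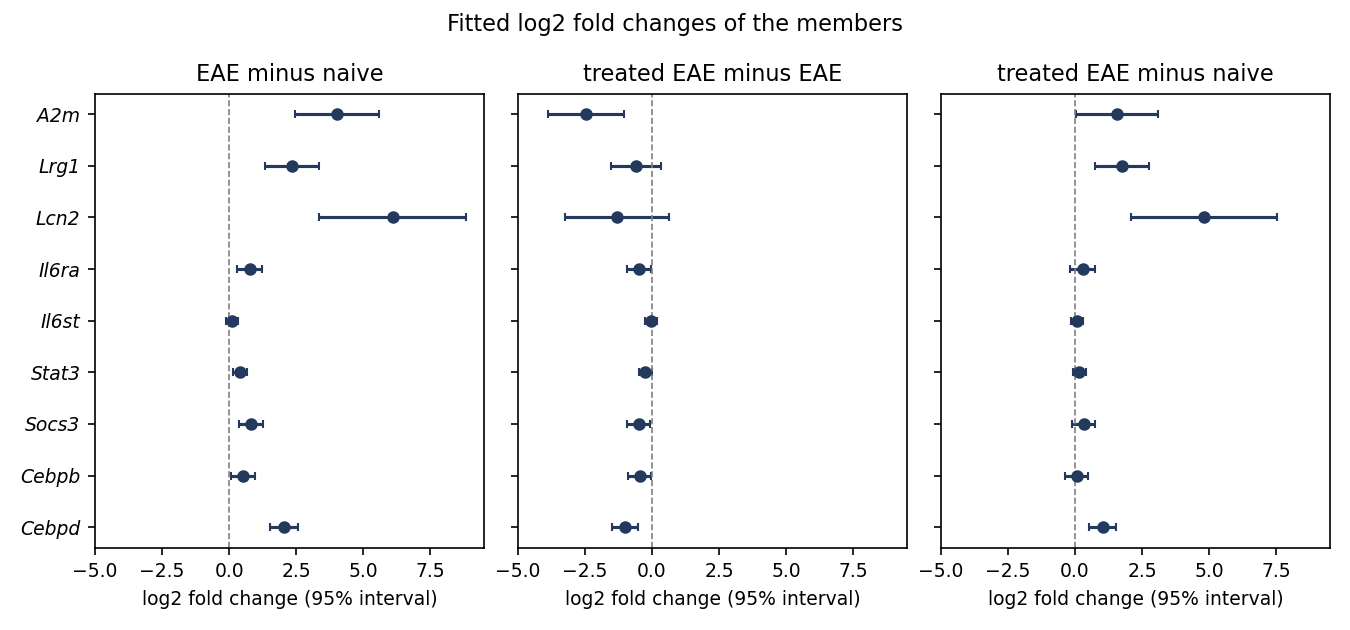
Fitted log2 fold change of each member with its 95% interval, in EAE minus naive, treated EAE minus EAE and treated EAE minus naive, on 1 shared scale. All 9 values are above 0 in EAE minus naive and below 0 in treated EAE minus EAE, with Il6st nearest to 0 in both.

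Counted together in EAE against naive cortex, 9 of 9 members had a log2 fold change above 0, with a median of 0.82, beside -0.0051 over all tested genes. By edgeR's quasi-likelihood test, with p-values adjusted by Benjamini and Hochberg over 18644 genes and a threshold of 0.05, 3 members were counted as higher, where 0.735% of all genes were called higher. In 8 members every EAE library was above every naive one, as in 12.2% of all genes. The members were picked with these levels known, so nothing is read from either count.

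In treated EAE against EAE, 9 of 9 members were below 0, with a median of -0.50, beside 0.0029 over all tested genes. EdgeR called 0 of the 9, where 0.129% of all genes were called lower. At an unadjusted p under 0.05, 5 members were lower, beside 7.65% of all genes, and DESeq2 called 2 lower, beside 2% of all genes. In 4 members, A2m, Il6ra, Cebpb and Cebpd, every treated library lay below every EAE library, as was so for 9.28% of all genes. Without EAE replicate 1, the library with the high choroid plexus sum, the log2 fold change of A2m was -2.84 and that of Cebpd -1.18. With each library left out in turn, A2m ran from -3.45 to -2.11 and Cebpd from -1.18 to -0.83. The treated levels were known when the members were picked, and the EAE libraries are those of the comparison with naive cortex, so nothing is read from these counts.

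In treated EAE against naive cortex edgeR called 0 of 9 members and 0% of all genes. At an unadjusted p under 0.05, 4 members were higher, beside 1.07% of all genes, and DESeq2 called 1 higher, beside 0.0161% of all genes. Treated libraries were all above naive ones in 6 members, A2m, Lrg1, Lcn2, Il6ra, Socs3 and Cebpd, which was so for 3.51% of all genes. The members were picked with the treated and naive levels known, so nothing is read from these counts. The log2 fold changes were 4.81 for Lcn2, 1.76 (SE 0.44) for Lrg1, 1.57 (SE 0.67) for A2m and 1.03 (SE 0.23) for Cebpd. The other 5 lay between 0.056 for Cebpb and 0.32 for Socs3.

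Levels of different genes were compared per kilobase of exon. In naive cortex Il6st led with 6.99 ± 0.510 CPM per kilobase, followed by Stat3 at 5.48 ± 0.337 and Cebpb at 4.82 ± 0.553, and Lcn2 was last at 0.0656 ± 0.0322 (SD, n = 3). Stat3 and Cebpb overlapped there, as did Lrg1 and Cebpd, while the other neighbours in the order did not. In EAE the leading 3 were the same, with Il6st at 7.61 ± 1.02, Stat3 at 7.29 ± 1.13 and Cebpb at 6.92 ± 1.79 CPM per kilobase, and overlapped each other. Lcn2 came next in EAE at a mean of 4.94 CPM per kilobase, but its libraries ran from 0.866 to 10.95 and so overlapped every other member. A2m had 0.563 ± 0.481 CPM per kilobase in treated EAE, 3.15 ± 1.63 in EAE and 0.191 ± 0.0301 in naive cortex. In treated EAE the leading 3 did not overlap each other, and Lrg1, at 2.59 ± 1.69, came next. The receptor chain Il6ra had the lowest mean in treated EAE, at 0.517 ± 0.0208 CPM per kilobase, although A2m lay below it in treated replicates 1 and 3. It had the lowest mean in EAE too, at 0.723 ± 0.172.

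**Figure D3:**
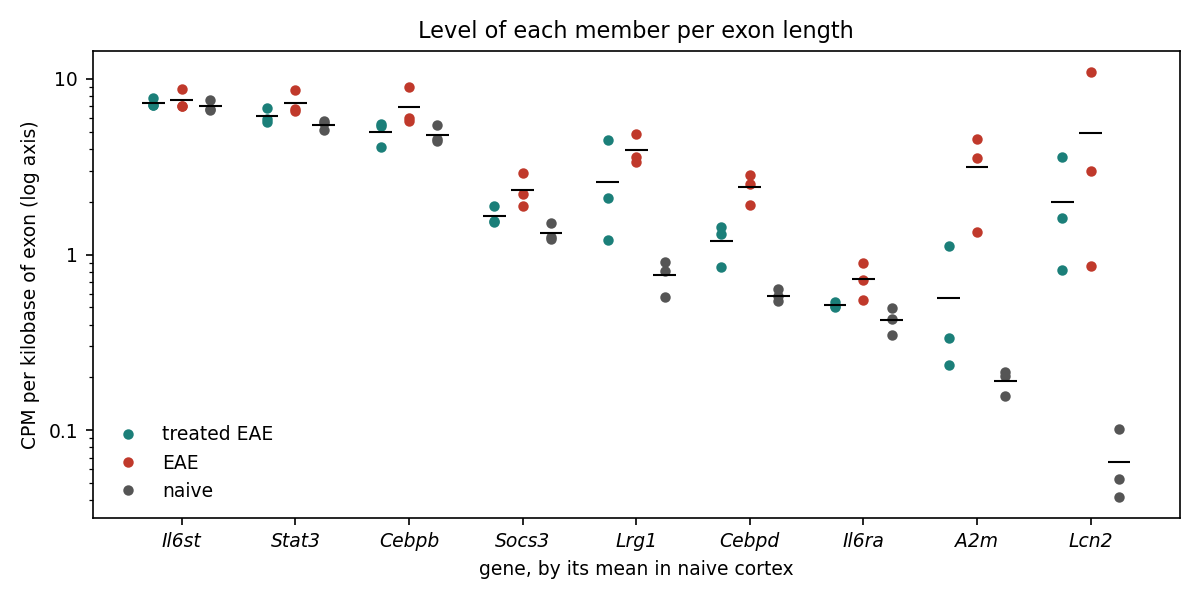
Level of each member in CPM per kilobase of exon on a log axis, 1 point per library and a line at the group mean, with treated EAE, EAE and naive cortex from left to right within a gene. Genes are ordered by their naive mean, so that Il6st, Stat3 and Cebpb stand at the left. Il6st stays at a like height in all groups, while Stat3 and Cebpb are higher in EAE than in naive cortex. A2m and Lcn2 at the right spread widely.

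Among the members, Lcn2 and A2m varied most between EAE replicates, and A2m, Lcn2 and Lrg1 between treated ones. The highest library was 12.6 times the lowest for Lcn2 in EAE and 4.37 times in treated EAE. For A2m that ratio was 4.73 in treated EAE and 3.36 in EAE, and for Lrg1 it was 3.69 in treated EAE and 1.44 in EAE. The other 6 members had ratios of 1.08 to 1.69 in treated EAE and 1.25 to 1.62 in EAE, so that Lrg1 in EAE lay among them. In naive cortex the ratio ran from 1.12 for Stat3 to 2.44 for Lcn2. Treated replicate 2 was the highest treated library in 7 of 9 members, and EAE replicate 1, the library with the high choroid plexus sum, was the lowest EAE library in 6 of 9. Over the 9 libraries, Pearson's r of log2 CPM between members ran from 0.0353 for Il6st with Socs3 to 0.932 for Lrg1 with Cebpd, and was 0.924 for A2m with Cebpd and 0.909 for A2m with Stat3. These libraries share groups, so the values mostly follow the group levels and carry no test.

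The genes whose log2 CPM ran most like a member's over the 9 libraries were listed by Pearson's r. The values are the highest of a search over all other tested genes. The libraries share groups, so they mostly follow the group levels and carry no test. For A2m the nearest genes were Rac2 (r = 0.99), Myo1g (0.986) and Tspo (0.973), and for Lrg1 they were Bst1 (0.966), Trim56 (0.96) and Alkbh4 (0.96). Lcn2 was nearest to Tmem252 (0.96), Extl3 (0.938) and Bst1 (0.936), so that Bst1 stood in the lists of Lrg1 and Lcn2. Stat3 was nearest to C1qa (0.979), C1qb (0.976) and I830077J02Rik (0.973). Cebpd was nearest to Rin2 (0.968), Lrrc8a (0.966) and Sult1a1 (0.966). Leading genes for the others were Pik3ip1 (0.97) for Il6ra, Arhgap29 (0.952) for Il6st, Nt5c (0.942) for Socs3 and Atp13a1 (0.979) for Cebpb.

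The rest of the pathway was read from 10 lists of 114 other genes, of which 87 passed the filter on low counts. In EAE against naive cortex, 71 of the 87 had a log2 fold change above 0, with a median of 0.29. Of the 87, 2 rose and 0 fell at an adjusted p of 0.05, where 0.735% of all genes rose and 0.252% fell. At an unadjusted p under 0.05, 32 were higher and 3 lower, beside 9.42% and 6.97% of all genes, and in DESeq2 17 were higher and 2 lower, beside 3.71% and 1.84%. In treated EAE against EAE, 25 of 87 were above 0, the median was -0.18, and 0 were called in either direction, where 0.0912% of all genes rose and 0.129% fell. There 3 were higher and 20 lower at an unadjusted p under 0.05, beside 7.43% and 7.65% of all genes. DESeq2 called 1 higher and 10 lower, beside 1.69% and 2%. In treated EAE against naive cortex 0 were called by either tool, with 3 higher and 0 lower at an unadjusted p under 0.05, beside 1.07% and 0.638% of all genes.

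The ligand genes Il6 and Osm were close to the detection limit. Il6 had 4, 2 and 4 counts in treated EAE, 2, 0 and 2 in EAE, and 0, 0 and 0 in naive cortex, so its level could not be compared at this depth, where 3 counts in a library correspond to 0.0671 to 0.11 CPM. Osm, the ligand of the oncostatin M receptor, reached at most 8 counts in any library. Of the 10 ligand genes 7 were tested and none was called, with a median log2 fold change of 0.57 in EAE over naive and -0.31 in treated EAE over EAE.

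Receptor chains other than Il6ra and Il6st had a median log2 fold change of 0.56 in EAE over naive and -0.32 in treated EAE over EAE, with 0 of 9 called in both. Osmr, which pairs with gp130 in the oncostatin M receptor, averaged 8.01 CPM in treated EAE, 10.9 CPM in EAE and 5.61 CPM in naive cortex, and its log2 fold change in EAE over naive was 0.96 (SE 0.22, adjusted p = 0.0729). Cntfr, the most abundant chain, differed little, at 0.11 in EAE over naive (adjusted p = 0.661). Among 10 JAK kinases and other STATs the medians were 0.15 in EAE over naive and -0.16 in treated EAE over EAE, with none called. Jak1, which binds gp130, averaged 182 CPM in treated EAE, 159 CPM in EAE and 179 CPM in naive cortex (adjusted p = 0.288 in EAE over naive and 0.249 in treated EAE over EAE). The 15 SOCS, PIAS and phosphatase genes had medians of 0.13 in EAE over naive and -0.07 in treated EAE over EAE and none was called. Ptpn11, the phosphatase SHP2, had a log2 fold change of 0.25 in EAE over naive (adjusted p = 0.23) and -0.20 in treated EAE over EAE (adjusted p = 0.374).

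Genes known as STAT3 targets, 16 tested, had medians of 0.30 in EAE over naive and -0.18 in treated EAE over EAE, with none called. The most abundant, Gfap, the intermediate filament of astrocytes, averaged 190 CPM in treated EAE, 430 CPM in EAE and 161 CPM in naive cortex, with a log2 fold change of 1.42 in EAE over naive (adjusted p = 0.109) and -1.18 in treated EAE over EAE (adjusted p = 0.19).

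The other acute-phase proteins had the list medians farthest from 0 in EAE over naive and in treated EAE over EAE. All 13 tested, of 29 listed, were above 0 in EAE over naive, with a median of 1.39, and 12 of 13 were below 0 in treated EAE over EAE, with a median of -1.21. Since genes low in naive cortex enter the test only where another group is high, the 13 are not the whole list. Itih3, a heavy chain of the inter-α-trypsin inhibitor, rose: it averaged 58.6 ± 10.5 CPM in EAE and 22.5 ± 4.12 CPM in naive cortex (SD, n = 3 each), for a log2 difference of 1.38 (SE 0.24, adjusted p = 0.0398, edgeR). In treated EAE it averaged 29.9 ± 9.0 CPM, with a log2 fold change of -0.97 against EAE (adjusted p = 0.139). Serpina3n, a serine protease inhibitor of reactive astrocytes, averaged 16.7 CPM in treated EAE, 54.6 CPM in EAE and 10.8 CPM in naive cortex, a log2 fold change of 2.33 in EAE over naive that missed the threshold (adjusted p = 0.0545). Complement C3 averaged 1.77 CPM in treated EAE, 14.3 CPM in EAE and 0.442 CPM in naive cortex (log2 fold change 4.96, adjusted p = 0.0605 in EAE over naive). Treated against EAE, Serpina3n was at -1.71 (adjusted p = 0.143) and C3 at -2.98 (adjusted p = 0.172). C3 had 2.27, 11.8 and 28.7 CPM in the EAE libraries, and without EAE replicate 3 its log2 fold change was 3.95 in EAE over naive and -1.98 in treated EAE over EAE. Mt1, a metallothionein and the most abundant of the list, had a log2 fold change of 0.50 in EAE over naive (adjusted p = 0.0634) and -0.26 in treated EAE over EAE (adjusted p = 0.294).

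Several other acute-phase genes were hardly or not detected. Crp, Apcs, Fgb, Fgg, Serpina1a and Hamp were at 0 in all 9 libraries. Saa3 had 0, 10 and 0 counts in treated EAE, 4, 22 and 75 in EAE, and 0, 0 and 0 in naive cortex. Hp, which encodes haptoglobin, had 9, 7 and 6 counts in treated EAE, 3, 10 and 49 in EAE, and 0, 0 and 7 in naive cortex. Ptx3 had 12, 6 and 6 counts in treated EAE, 6, 10 and 94 in EAE, and 11, 8 and 9 in naive cortex. In Saa3, Hp and Ptx3 the highest library was EAE replicate 3, as for Lcn2.

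Of the negative acute-phase proteins, which liver makes less of during inflammation, Trf (transferrin) was the most abundant outside EAE, with 266 CPM in treated EAE, 196 CPM in EAE and 272 CPM in naive cortex and a log2 fold change of -0.47 in EAE over naive (adjusted p = 0.583). In EAE the mean of Ttr, a choroid plexus gene of the same list, was higher, at 307 CPM, with 828, 8.35 and 85.3 CPM in the EAE libraries. Among the other C/EBP factors Cebpa rose, with 17.9 ± 3.80 CPM in EAE and 8.62 ± 0.808 CPM in naive cortex (SD, n = 3 each), for a log2 difference of 1.05 (SE 0.17, adjusted p = 0.028, edgeR). Treated cortex averaged 9.97 ± 1.37 CPM of Cebpa, a log2 fold change of -0.84 against EAE (adjusted p = 0.0896, and 0.000762 in DESeq2). Cebpg, the most abundant factor of that list, was at 0.15 in EAE over naive (adjusted p = 0.411). A2ml1, a relative of A2m, was at -0.38 (adjusted p = 0.466), and Lrp1, the receptor that clears α2-macroglobulin, at 0.13 (adjusted p = 0.433). The calls of Itih3 and Cebpa were both lost without EAE replicate 2 (adjusted p = 0.135 and 0.0785), EAE replicate 3 (0.0922 and 0.0772), or naive replicate 1 (0.169 and 0.123), 2 (0.129 and 0.0998) or 3 (0.1 and 0.109). The call of Itih3 was lost as well without treated replicate 2 (0.0593) and with no filter on low counts (0.065).

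**Figure D4:**
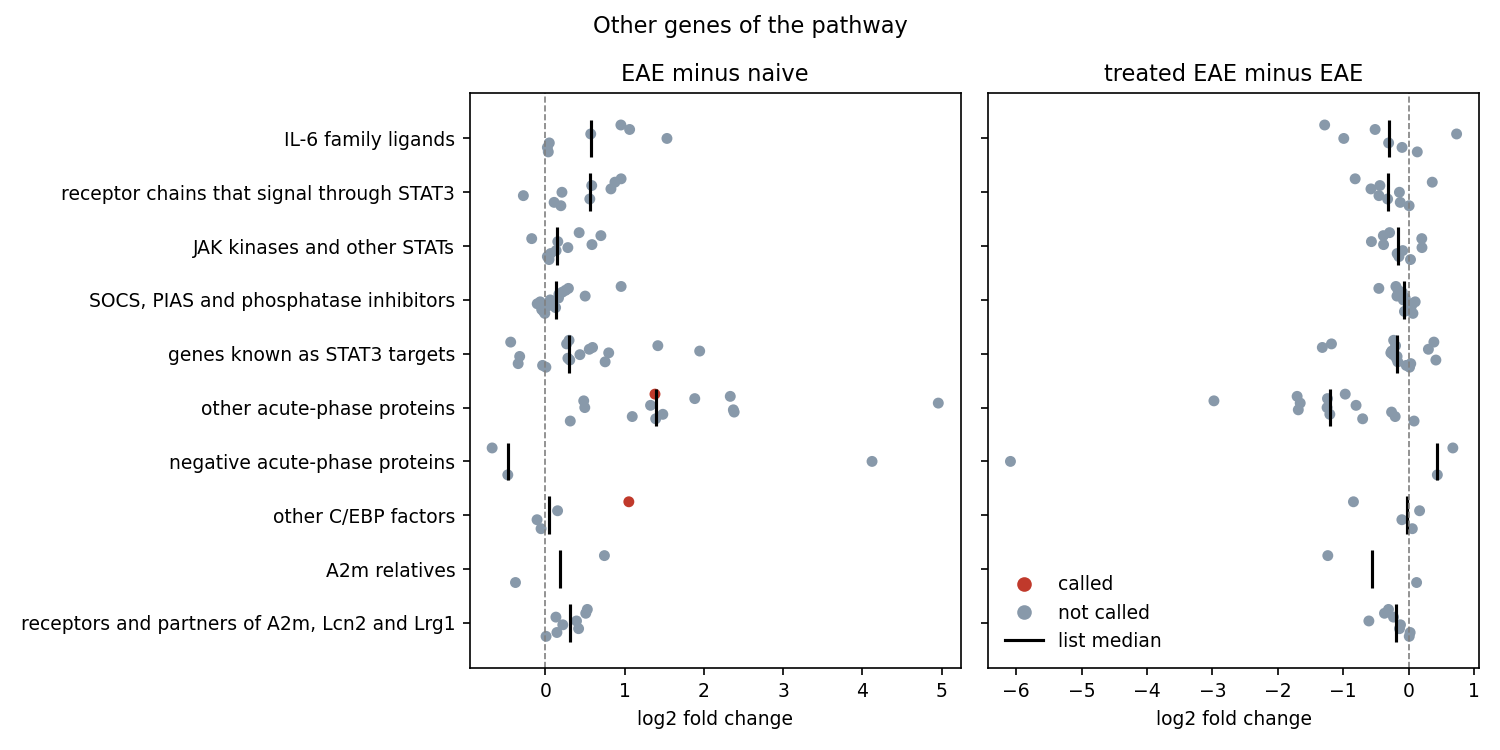
Log2 fold change of each tested gene of the 10 pathway lists in EAE minus naive and treated EAE minus EAE, with a bar at the list median and red for genes called at an adjusted p of 0.05. Itih3 and Cebpa are the only red points, the isolated point among the negative acute-phase proteins is Ttr, a choroid plexus marker, and the other acute-phase proteins have medians of 1.39 in EAE minus naive and -1.21 in treated EAE minus EAE.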

How the data were processed

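The series' design text names FastQC (0.11.8 per the submitters' processing notes) and fastp for read checks and trimming, Hisat2 for alignment, bowtie2 for quantification and DESeq2 for calling genes. The build was mm10, per the submitters' processing notes. The authors deposited raw counts per gene symbol, from poly(A)-selected RNA per the labels' protocols. No gene annotation or strand setting is stated in the labels. Columns were matched to samples by title, and 9 further columns that match no sample used here were not used. In each library 3.8 to 4.43 times as many genes had 2 counts as had 1, so a count may stand for less than 1 read pair, and counting error may be larger than the counts imply.

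Counts of all 9 libraries were fitted in edgeR 4.0.16 (filterByExpr, TMM, robust quasi-likelihood, group as the only factor, 6 residual degrees of freedom), with Benjamini-Hochberg adjustment over 18644 genes and a threshold of 0.05. The p-values measure the spread between samples, which the labels do not tie to separate cages or inductions. Fold changes carry edgeR's prior count of 0.125, and standard errors are the absolute log2 fold change over the square root of F. DESeq2 1.42.0 and other scalings, filters, groups and left-out libraries were alternatives. The script was tested on simulated data. No 2 libraries of a group agreed within sampling noise. Exon lengths and positions came from GENCODE M21 on GRCm38.

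Treated and EAE libraries of the same number deviated together from their groups (r = 0.175, 0.245 and 0.238). These numbers may thus stand for pairs, but the labels tie none across groups. Libraries of different numbers reached a higher r elsewhere, 0.349 for treated replicate 2 with naive replicate 1, so r cannot settle this. The values given come from the fit without a block, and a fit with the replicate number as a block over all 3 groups is an alternative. Members and lists were chosen with earlier results of these data known. Of each list, the genes called and the most abundant gene not called were named, except for 1 ligand gene that is not reported here. Il6, Osm, Osmr, Serpina3n, C3, Ttr, Ms4a6c, Chil3, Ccr2, Fn1, Saa3, Hp, Ptx3 and the genes at 0 were named after their values were seen. Pathway lists are IL-6 family ligands, STAT3-signalling receptor chains, JAKs and STATs, SOCS, PIAS and phosphatases, STAT3 targets, other and negative acute-phase proteins, other C/EBP factors, A2m relatives, and receptors and partners of A2m, Lcn2 and Lrg1. Of these, A2m relatives had medians of 0.18 in EAE over naive and -0.56 in treated EAE over EAE (2 tested), and the partners 0.31 and -0.19 (8 tested).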

Additional observations from a re-analysis of the deposited data

How the results depend on the processing

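In DESeq2, run on all 34714 genes and not only the 18644 that edgeR tested, EAE against naive gave 699 genes higher and 343 lower (137 and 47 in edgeR), 7 members, and 17 pathway genes higher and 2 lower; treated against EAE gave 315 and 373 (17 and 24 in edgeR), 2 members lower, and 1 and 10 pathway genes; treated against naive gave 3 genes higher, 1 a member. With no filter on low counts 37 genes were lower in treated than in EAE, and with only those 2 groups fitted 0 were higher and 3 lower. Leaving out 1 library in turn gave 2 to 234 genes higher and 0 to 82 lower in EAE against naive, with 0 to 3 members higher, 0 to 7 pathway genes higher and 0 to 1 lower. In treated against EAE it gave 1 to 14 genes higher, 3 to 34 lower and 0 to 1 pathway genes lower. Signs turned in treated over EAE for Il6st (0.057 without EAE replicate 2, range -0.12 to 0.057) and Lcn2 (0.039 without EAE replicate 3, range -2.04 to 0.039), and in treated over naive for Cebpb (-0.0094 without treated replicate 2, -0.023 without treated replicate 3, -0.0083 without naive replicate 1, range -0.023 to 0.18). The cause was not tested.

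With the replicate block, EAE against naive gave 7 pathway genes higher in place of 2. Same-numbered EAE and naive libraries correlated at 0.055, 0.114 and 0.36, and treated and naive at -0.246, -0.121 and 0.199. The labels tie none of these either. The block changed no call of a member: in treated over EAE, A2m was at -2.57. Il6 and naive Lcn2 are limited by depth.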
